A study of Mus musculus with 8 samples.

Results

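To describe how *Setd2* inactivation related to the signals that call neutrophils into a lung tumor and to the secreted proteins that defend its epithelium, 10 genes were read out of a transcriptome of mouse lung tumors. The genes were the chemokines *Cxcl1*, *Cxcl2*, *Cxcl5*, *Cxcl15* and *Ccl20* and the defense proteins *Lcn2*, *Saa3*, *Ltf*, *Lyz1* and *Lyz2*. The rule takes them by name, with no threshold on their measured values, and all 10 were found among the 48709 genes of the deposited table. The samples were *K-Ctrl* (4) and *K-Setd2KO* (4) tumors of *K* mice, the study's name for its Cre-dependent lung tumor model, on a mixed B6J/129S4vJae background, all started by endotracheal delivery of the lentiviral vector LentiCRISPRv2Cre, which carries Cre recombinase and a CRISPR guide. *K-Ctrl* tumors carried a control guide (sgGFP) and *K-Setd2KO* tumors a guide against *Setd2*, whose product places the third methyl group on lysine 36 of histone H3, so that both groups shared the tumor model, Cas9 and Cre. The labels name lung adenocarcinoma, the study's text describes stage-matched low-grade adenomas, the extraction text speaks of cell lines, and the labels give no age of the mice at harvest. Whole tumors also hold host cells that the vector did not reach, and in bulk RNA fewer cells of a type cannot be told apart from less RNA per cell.

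Neutrophils leave the blood toward chemokines of the CXC family that carry a glutamate-leucine-arginine motif (ELR chemokines) and bind the receptors CXCR1 and CXCR2. In the lung, epithelial cells and macrophages make *Cxcl1* and *Cxcl2* after interleukin-1, tumor necrosis factor or bacterial products activate the transcription factor NF-κB, and epithelium makes *Cxcl5*. *Cxcl15* (lungkine) is a chemokine made almost wholly by lung epithelium, and *Ccl20* attracts lymphocytes and dendritic cells that bear CCR6. The defense proteins act in the airway lining fluid: lipocalin-2 (*Lcn2*) binds bacterial iron carriers, lactoferrin (*Ltf*) binds iron itself, serum amyloid A3 (*Saa3*) is an acute-phase protein, and the lysozymes *Lyz1* and *Lyz2* cut bacterial cell walls. *Lyz2* is a classical product of macrophages and alveolar type 2 cells, whereas *Lyz1* is best known from Paneth cells of the gut.

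Total counts ranged from 5806599 to 21290402 per tumor, so that 3 counts, the limit used for a gene without reads, stood for 0.138 to 0.513 CPM (counts per 1000000 of the TMM-scaled library size). *Setd2* mRNA itself did not separate the groups (log2 fold change −0.05, SE 0.115, edgeR adjusted p 0.824), and the edit cannot be checked from gene counts. By *Xist* and Y-linked genes, 1 *K-Ctrl* and 3 *K-Setd2KO* tumors were female, so sex and genotype were unevenly mixed. In the edgeR fit over all genes, 1897 of 14929 tested genes were called at an adjusted p under 0.05, a background of 12.7%, with 4.97% called higher and 7.74% called lower in *K-Setd2KO*. Values of single tumors are listed in the order of replicates 1 to 4. Whether the tumors came from separate mice is not given, so the p-values measure the spread between these 8 samples.

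Of the 10 genes, 9 had enough reads to be tested and 0 were called by edgeR, against the 12.7% of all tested genes. For 9 genes, 0 calls lie near that share. *Cxcl1*, *Cxcl2*, *Cxcl5*, *Saa3*, *Ltf* and *Lyz1* varied more between tumors than at least 95.6% of tested genes. On simulated counts the fit recovered 33% of 2-fold and 69% of 4-fold changes, so 0 calls do not show a lack of response. At an unadjusted p under 0.05, 2 of the 9 passed, *Lyz1* and *Lcn2*, against a background of 29.9%. DESeq2 called the same 2 genes among 8 with an adjusted p, where its background was 21.4%. There were 4 genes with a higher and 5 with a lower fitted level in *K-Setd2KO*, and their median log2 fold change was −0.19 beside 0.03 for all tested genes. The values of the 4 and 4 tumors overlapped for each of the 10 genes, whereas 20.3% of all tested genes had groups that did not overlap.

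**Figure D1:**
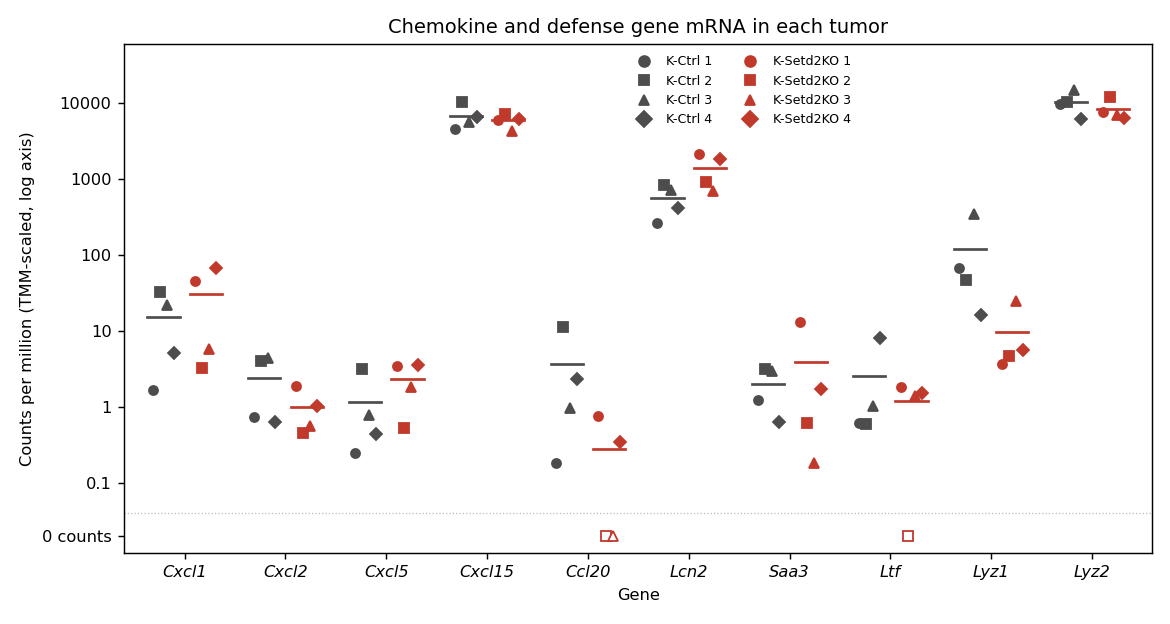
TMM-scaled CPM of the 10 genes in each tumor on a log axis, with 1 marker shape per replicate number, a horizontal line at each group mean and open markers on the lowest line for tumors with 0 counts. *Cxcl15* and *Lyz2* lay at or above 4236 CPM in every tumor and *Lcn2* between 259.9 and 2159 CPM, whereas the chemokines other than *Cxcl15* did not exceed 67.6 CPM.

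The levels of the 10 genes spanned a very wide range when compared per length, as RPKM, which divides CPM by the exon length in kilobases. *Lyz2* had the third highest mean RPKM of all 48709 genes in both groups, 8055 ± 2767 for *K-Ctrl* and 6528 ± 2002 for *K-Setd2KO* (SD, 4 tumors per group). *Cxcl15* followed at 3183 ± 1198 and 2795 ± 592 RPKM, rank 13 and rank 12. *Lyz2* alone took 1.04% and *Cxcl15* 0.689% of all counts in *K-Ctrl*. *Lcn2* stood at rank 136 in *K-Ctrl* with 212 ± 101 RPKM and at rank 51 in *K-Setd2KO* with 536 ± 269.6 RPKM. *Lyz1* came next in *K-Ctrl*, at 94.1 ± 121 RPKM and rank 412, but in *K-Setd2KO* it stood below *Cxcl1*, at 7.74 ± 8.10 beside 16.3 ± 16.8 RPKM, a pair whose spreads overlapped. The remaining genes, *Ccl20*, *Cxcl2*, *Saa3*, *Ltf* and *Cxcl5*, had mean levels between 0.196 and 2.59 RPKM in both groups, and the SDs of neighbors in that order overlapped.

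Apart from *Ccl20*, which was not fitted, *Lyz1*, the lysozyme best known from Paneth cells, had the largest difference of the 10. Its values were 67.5, 47.1, 345 and 16.0 CPM in the *K-Ctrl* tumors and 3.65, 4.74, 25.1 and 5.65 CPM in the *K-Setd2KO* tumors. Replicate 3 was the highest of its group in both genotypes, and the groups overlapped because *K-Setd2KO* replicate 3 lay above the lowest control, replicate 4. The means were 119 ± 152 and 9.78 ± 10.2 CPM (SD, 4 tumors per group), a 12.2-fold lower level. The log2 fold change was −3.61 (SE 1.03), with an edgeR p of 0.00685, an adjusted p of 0.0519 and a two-sided exact permutation p of 0.0571, where 0.0286 is the smallest p that 4 tumors against 4 allow. DESeq2 gave an adjusted p of 0.00453. Leaving out *K-Ctrl* replicate 4 or *K-Setd2KO* replicate 3, the tumors that overlapped, gave edgeR adjusted p of 0.0333 and 0.0482, while the other 6 fits that left out 1 tumor gave up to 0.130, the log2 fold change being −2.16 without *K-Ctrl* replicate 3. With sex as a term it was −2.92 (edgeR adjusted p 0.0810).

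*Lyz2*, the neighboring lysozyme gene, was high throughout. It reached 9609, 10405, 14652 and 6125 CPM in the *K-Ctrl* tumors and 7627, 11988, 7071 and 6374 CPM in the *K-Setd2KO* tumors, with the lowest and the highest tumor both in *K-Ctrl*. Its log2 fold change of −0.30 (SE 0.295, edgeR adjusted p 0.529) was about as large as its error. *Lyz1* made up 0.698%, 0.450%, 2.30% and 0.260% of the RNA of both lysozymes in *K-Ctrl* and 0.0478%, 0.0395%, 0.354% and 0.0885% in *K-Setd2KO*. In every tumor nearly all lysozyme reads were therefore *Lyz2* reads. The log2 ratio of *Lyz1* to *Lyz2* was 2.91 lower in *K-Setd2KO* as a difference of means (−7.23 ± 1.35 and −10.14 ± 1.43, SD, 4 tumors per group), with an exact permutation p of 0.0571 and 0.152 after Benjamini-Hochberg adjustment over the 4 ratios examined.

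The 2 lysozyme genes lie side by side on the minus strand of chromosome 10 (GRCm38), *Lyz2* (ENSMUSG00000069516.7) at chr10:117277334-117282274 and *Lyz1* (ENSMUSG00000069515.5) at chr10:117287796-117292868, with 5521 bases between them. Their coding sequences, taken from GENCODE M21 transcripts, are both 444 bases long and 95.0% identical, differing at 22 bases. The first 150 coding bases are shown because they hold 14 of those 22 differences, which are in capitals.
Lyz1: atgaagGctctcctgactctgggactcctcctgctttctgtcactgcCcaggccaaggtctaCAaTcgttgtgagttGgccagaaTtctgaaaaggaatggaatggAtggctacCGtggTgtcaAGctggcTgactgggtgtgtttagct
Lyz2: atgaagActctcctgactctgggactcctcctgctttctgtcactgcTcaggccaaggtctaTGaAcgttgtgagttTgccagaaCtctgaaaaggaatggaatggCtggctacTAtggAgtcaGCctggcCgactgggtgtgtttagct
Reads that span the capitals can be told apart, but the longest identical stretch ran over 118 bases, and 16.1% of the 50-base words of *Lyz1* transcripts also occurred in *Lyz2*. With *Lyz2* at a far higher level, a small share of misplaced reads would weigh on *Lyz1*, so its level is reported as uncertain.

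*Lcn2*, the siderophore-binding lipocalin (ENSMUSG00000026822.14, chr2:32384633-32388252, minus strand), had the largest upward difference of the 10. It measured 259.9, 836, 712 and 417 CPM in the *K-Ctrl* tumors and 2159, 920.2, 696 and 1846 CPM in the *K-Setd2KO* tumors. *K-Setd2KO* replicates 1 and 4 stood above all controls, whereas replicate 3 fell within them and replicate 2 just above the highest. The means were 556 ± 264 and 1405 ± 707 CPM (SD, 4 tumors per group), with a log2 fold change of 1.34 (SE 0.455, edgeR p 0.0163, adjusted p 0.0854) and an exact permutation p of 0.0857. DESeq2 called it with an adjusted p of 0.0129. With sex as a term the log2 fold change was 0.78 (edgeR adjusted p 0.284), and within male and within female tumors the log2 differences were 0.71 and 0.88, each with 1 tumor on one side.

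Lactoferrin (*Ltf*, ENSMUSG00000032496.7, chr9:111019271-111042767, plus strand), the other iron-withholding protein, was near the detection limit. It measured 0.616, 0.588, 1.02 and 8.12 CPM in the *K-Ctrl* tumors and 1.85, 0, 1.38 and 1.54 CPM in the *K-Setd2KO* tumors, where 0 counts in replicate 2 allow up to 0.229 CPM. A single control, replicate 4, lay apart from the other tumors and set the sign of the comparison. A log2 fold change of −1.09 (SE 1.11, edgeR adjusted p 0.547) became 0.66 (edgeR adjusted p 0.685) without that tumor. The log2 ratio of *Lcn2* to *Ltf* averaged 8.53 ± 2.03 for *K-Ctrl* and 10.95 ± 2.47 for *K-Setd2KO* (SD, 4 tumors per group), and the means differed by 2.42 (exact permutation p 0.200, unchanged by the adjustment over the 4 ratios). In *K-Setd2KO* replicate 2, where *Ltf* had 0 counts, the ratio of 14.55 is set by the added count, and without that tumor the difference was 1.22.

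The acute-phase gene *Saa3* (ENSMUSG00000040026.8, chr7:46711998-46715700, minus strand) was also low. Its values were 1.23, 3.19, 2.95 and 0.625 CPM in the *K-Ctrl* tumors and 13.1, 0.612, 0.185 and 1.71 CPM in the *K-Setd2KO* tumors. Only *K-Setd2KO* replicate 1 exceeded the controls. The log2 fold change of 0.99 (SE 1.09, edgeR adjusted p 0.580) turned to −1.37 (edgeR adjusted p 0.316) without that tumor, so no direction can be given for *Saa3*.

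**Figure D2:**
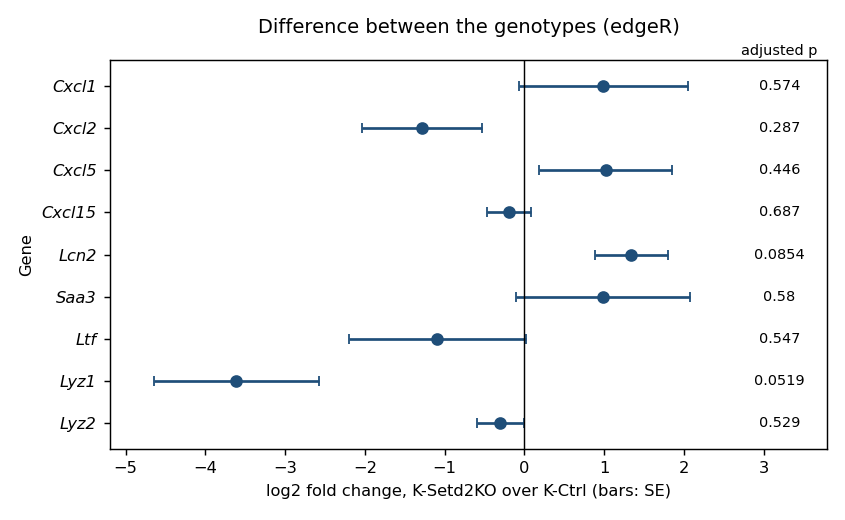
Fitted log2 fold change of the 9 tested genes in *K-Setd2KO* over *K-Ctrl* (points, with bars of 1 SE) and the edgeR adjusted p of each at the right. *Lyz1* lay farthest from 0 at −3.61, *Lcn2* was at 1.34, and no adjusted p was under 0.05.

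*Cxcl1* (ENSMUSG00000029380.11, chr5:90891241-90893115, plus strand), a main ligand of CXCR2 in the mouse, varied 19.7-fold within *K-Ctrl* and 20.6-fold within *K-Setd2KO*. It measured 1.66, 32.8, 21.7 and 5.18 CPM in the *K-Ctrl* tumors and 45.8, 3.29, 5.81 and 67.6 CPM in the *K-Setd2KO* tumors. The 2 highest tumors were *K-Setd2KO* replicates 4 and 1, but the other two of that group were as low as the lower controls. The log2 fold change was 0.99 (SE 1.06, edgeR adjusted p 0.574, exact permutation p 0.543), and with sex as a term it was −0.22 (edgeR adjusted p 0.926). Within male and within female tumors, the log2 differences were 0.02 and −0.59. Over the 8 fits that left out 1 tumor, the log2 fold change of *Cxcl1* ranged from 0.26 without *K-Setd2KO* replicate 4 to 1.66 without *K-Ctrl* replicate 2.

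*Cxcl2* (ENSMUSG00000058427.10, chr5:90903871-90905938, plus strand), a second CXCR2 ligand, leaned the other way. It measured 0.739, 4.03, 4.34 and 0.625 CPM in the *K-Ctrl* tumors and 1.90, 0.459, 0.554 and 1.03 CPM in the *K-Setd2KO* tumors. Only control replicates 2 and 3 rose above the range of *K-Setd2KO*. Its log2 fold change was −1.28 (SE 0.751, edgeR adjusted p 0.287, and −1.90 to −0.83 over the fits that left out 1 tumor), and 5.84% of the 50-base words of its transcripts also occur in *Cxcl3*, so reads may be shared between the 2 genes.

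The difference between both chemokines was examined as their ratio in the same tumor, which does not depend on library size. The log2 ratio of *Cxcl1* to *Cxcl2* was 1.14, 3.01, 2.32 and 2.96 in the *K-Ctrl* tumors whereas it was 4.57, 2.74, 3.29 and 5.93 for *K-Setd2KO*. *K-Setd2KO* replicates 1, 3 and 4 stood above all controls and replicate 2 within them. The difference of means was 1.78, with an exact permutation p of 0.0857 and an adjusted p of 0.152 over the 4 ratios.

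*Cxcl5* (ENSMUSG00000029371.7, chr5:90759360-90761624, plus strand), an epithelial ELR chemokine, was low in all tumors. It measured 0.246, 3.19, 0.785 and 0.446 CPM in the *K-Ctrl* tumors and 3.44, 0.535, 1.85 and 3.59 CPM in the *K-Setd2KO* tumors. Control replicate 2 reached the level of *K-Setd2KO* replicates 1 and 4, and *K-Setd2KO* replicate 2 that of the lower controls. Its log2 fold change was 1.02 (SE 0.831, edgeR adjusted p 0.446, exact permutation p 0.229), and 2.19 (edgeR adjusted p 0.110) without *K-Ctrl* replicate 2. The log2 differences within male and within female tumors, 1.97 and −0.74, had opposite signs.

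Lungkine (*Cxcl15*, ENSMUSG00000029375.6, chr5:90794534-90803067, plus strand), the dominant chemokine of these tumors, measured 4599, 10415, 5586 and 6484 CPM in the *K-Ctrl* tumors and 6060.1, 7272, 4236 and 6211 CPM in the *K-Setd2KO* tumors. All *K-Setd2KO* tumors but replicate 3 lay within the range of the controls. Its log2 fold change was −0.19 (SE 0.275, edgeR adjusted p 0.687) and changed sign to 0.10 (edgeR adjusted p 0.832) without *K-Ctrl* replicate 2. A short gene on the opposite strand, *Gm24322*, lies within *Cxcl15*, and whether counting used the read strand is not given in the sources used here. The log2 ratio of *Cxcl5* to *Cxcl15* differed by 1.47 between the groups, with an exact permutation p of 0.114 and an adjusted p of 0.152.

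**Figure D3:**
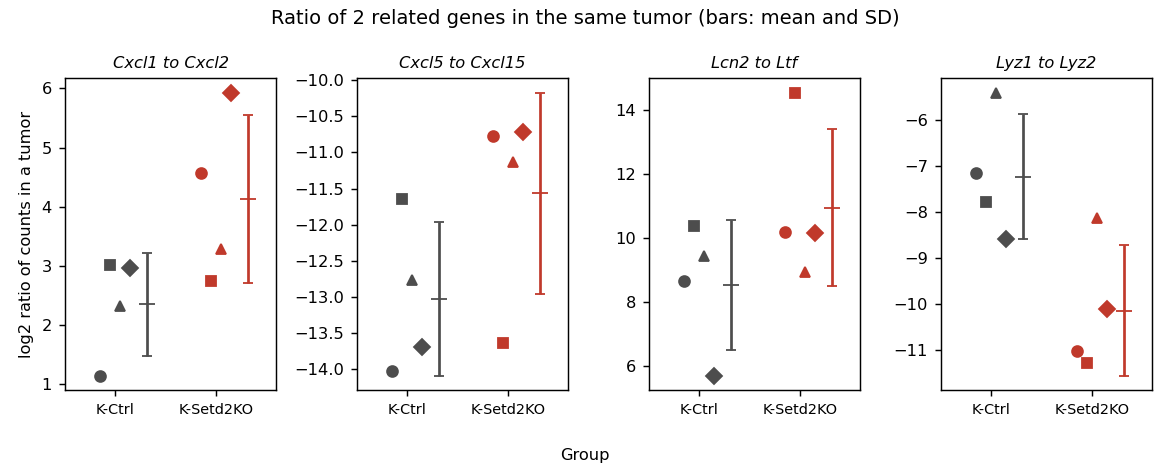
The log2 ratio of counts of 2 related genes in the same tumor, for the 4 pairs, with each tumor as a point and the mean ± SD of each group beside it. The ratio of *Lyz1* to *Lyz2* was lower and that of *Cxcl1* to *Cxcl2* higher on average in *K-Setd2KO*, and the groups overlapped in each of the 4 panels.

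*Ccl20* (ENSMUSG00000026166.14, chr1:83116766-83119167, plus strand), the CCR6 ligand, had too few reads to enter the edgeR fit. It measured 0.185, 11.3, 0.969 and 2.32 CPM in the *K-Ctrl* tumors, from 3, 134, 21 and 26 counts, and 0.770, 0, 0 and 0.342 CPM in the *K-Setd2KO* tumors, from 15, 0, 0 and 2 counts. Zero counts in *K-Setd2KO* replicates 2 and 3 allow up to 0.229 and 0.277 CPM. *K-Ctrl* replicate 2 stood far above the others, the lowest control lay under the highest *K-Setd2KO* tumor, and the exact permutation p was 0.114.

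The 4 CXC chemokines lie within 146579 bases of chromosome 5 that hold 11 genes of the table, in the order *Cxcl5*, *Ppbp*, *Pf4*, *Cxcl3*, *Cxcl15*, *Gm24322*, *Gm43085*, *Gm43086*, *Cxcl1*, *Gm22816* and *Cxcl2*, and they are named here for their position. Neighbors had very different levels. *Cxcl15* stood at 3183 and 2795 RPKM as means of *K-Ctrl* and *K-Setd2KO*, whereas *Cxcl3* before it stood at 0.766 and 2.63 RPKM. *Cxcl1* was the next most abundant of the 4 at 8.17 and 16.3 RPKM, and *Cxcl2* at 1.18 and 0.476 RPKM and *Cxcl5* at 0.627 and 1.26 RPKM were below it, in opposite order in the 2 groups. *Gm43085*, which begins just after the end of *Cxcl15* on the same strand, reached 399.8 and 191 RPKM. *Ppbp* and *Cxcl3*, which encode the other ELR chemokines measured, had log2 fold changes of −2.52 (SE 1.04, edgeR adjusted p 0.143) and 1.78 (SE 0.821, edgeR adjusted p 0.183, and 0.78 with a sex term). *Ppbp* was not called in 6 of the 7 fits that left out 1 tumor and kept it among the tested genes (log2 fold change as small as −2.07, edgeR adjusted p up to 0.281), and passed in 1, without *K-Setd2KO* replicate 4, its highest tumor in that group (−4.34, 0.0303).

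**Figure D4:**
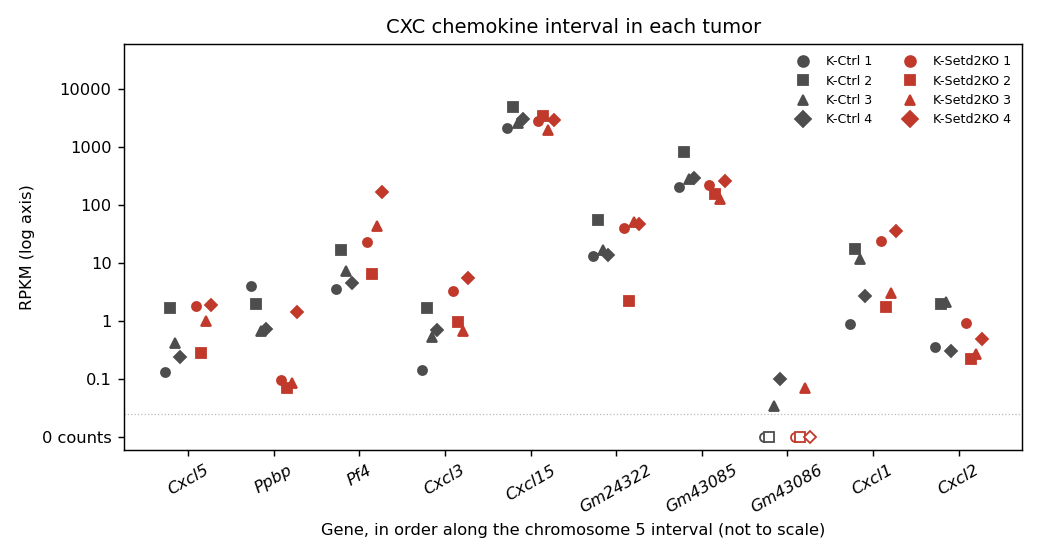
RPKM on a log axis of the genes with reads in the chromosome 5 interval, in their order along the chromosome and not to scale, with 1 point per tumor and open markers for 0 counts. *Cxcl15* lay at or above 1992 RPKM in every tumor, while *Cxcl1*, *Cxcl2* and *Cxcl5* did not exceed 36.1 RPKM.

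Within a genotype, the same tumors were high for most of the genes. *K-Setd2KO* replicates 1 and 4 were the 2 highest of their group for 7 of the 10 genes, the exceptions being *Cxcl15*, *Lyz1* and *Lyz2*, and *K-Ctrl* replicates 2 and 3 were the 2 highest controls for 6 of the 10. The share of all genes with these tumors on top was not taken, so the counts are not particular to the 10 genes. The depth of replicates 1 and 4 was the highest and the lowest of the *K-Setd2KO* libraries. *Cxcl2* had 6 counts in each of *K-Setd2KO* replicates 2, 3 and 4, so depth alone set the place of replicate 4. *Ccl20* had only 2 counts in that tumor. After the group mean was taken off, log2 CPM of *Cxcl1* correlated with that of *Lcn2* (Pearson r 0.95), *Cxcl5* (0.89), *Cxcl2* (0.85) and *Ccl20* (0.79) over the 8 tumors, and *Lcn2* with *Saa3* (0.81). *Lyz1* correlated with *Lyz2* at 0.52 and with *Cxcl1* at 0.01, and the lowest value was that of *Ltf* with *Lyz2* (−0.83). These correlations share library and depth and are given as a description.

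Promoter sequences were examined because several of these genes varied together across tumors. RefSeq promoters of 300 bases (250 before to 50 after the start, GRCm38.p6) were available for 9 of the 10 genes. The NF-κB motif, searched on both strands, occurred in 3 of the 9, *Ccl20*, *Cxcl1* and *Cxcl2*, and in 8.46% of 32851 promoters. The windows around it are shown with the match in capitals. *Cxcl1* and *Cxcl2* carry the same capitals, in which 2 overlapping matches lie.
Ccl20, chr1:83116661-83116720, plus strand: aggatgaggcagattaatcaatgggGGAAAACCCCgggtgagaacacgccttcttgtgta
Cxcl1, chr5:90891149-90891208, plus strand: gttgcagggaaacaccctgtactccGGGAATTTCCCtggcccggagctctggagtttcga
Cxcl2, chr5:90903777-90903836, plus strand: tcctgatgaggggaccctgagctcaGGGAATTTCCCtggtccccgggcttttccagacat
The C/EBP motif TTGCNNAA, searched on both strands, occurred in 4 of the 9, *Lcn2*, *Saa3*, *Ltf* and *Lyz1*, and in 10.8% of promoters. It is shown for *Lcn2* and *Saa3*, whose levels correlated at 0.81. *Lcn2* correlated at 0.16 and −0.11 with *Ltf* and *Lyz1*, the other genes with this motif. It correlated at 0.95, 0.87 and 0.82 with *Cxcl1*, *Cxcl2* and *Ccl20*, which held the NF-κB motif instead. Whether a shared motif goes with shared variation was not tested.
Lcn2, chr2:32387922-32387981, minus strand: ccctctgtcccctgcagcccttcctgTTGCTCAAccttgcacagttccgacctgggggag
Saa3, chr7:46715742-46715801, minus strand: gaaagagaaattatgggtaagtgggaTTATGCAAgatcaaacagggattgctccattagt
None of the 9 promoters held both motifs, so their matches do not overlap. The RefSeq start of *Lcn2* lies inside the gene as counted, so its window is downstream of that gene's 5′ end. The printed strand of the *Saa3* window could not be checked against a transcript, and a match describes letters only and is not evidence that a factor bound there.

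The genes whose deviations followed each tested gene most closely were taken from 11369 genes with a mean of at least 5 CPM, again as a description over 8 tumors. They were *Scyl2*, *2310057M21Rik* and *Slc16a6* for *Cxcl1* (Pearson r 0.998 to 0.978), *P2ry14* and *Cbfb* for *Cxcl2* (0.990 and 0.972), and *Katnbl1*, *Agps* and *Yipf5* for *Cxcl5* (0.987 to 0.981). *Cxcl15* was followed by *Ddx21*, *Lax1* and *Igkv4-59* (0.983 to 0.976), *Lcn2* by *Ifngr2*, *Ch25h* and *Grem1* (0.987 to 0.980), and *Saa3* by *Dock5*, *Plekho2* and the complement gene *C3* (0.954 to 0.947). *Ltf* was followed by *Chd4*, *Surf6* and *Fmod* (0.971 to 0.970), *Lyz1* by *Mfsd7a*, *Abhd3* and *H3f3a* (0.967 to 0.951), and *Lyz2* by *Aprt*, *Nxt1* and *Coro1b* (0.975 to 0.973).

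Of the 4 receptors with enough reads, 1 was called. *Cxcr1*, a receptor for ELR chemokines, fell from 20.4 ± 11.5 to 2.47 ± 1.85 CPM (SD, 4 tumors per group, log2 fold change −2.99, SE 0.543, edgeR adjusted p 0.0124), and its groups did not overlap. This call held in all 8 fits that left out 1 tumor. *Cxcr2*, the main chemokine receptor of neutrophils, measured 3.88, 4.20, 3.42 and 6.07 CPM in the *K-Ctrl* tumors and 23.5, 0.841, 9.51 and 41.9 CPM in the *K-Setd2KO* tumors. Its high tumors were *K-Setd2KO* replicates 1 and 4, as for *Cxcl1* and *Lcn2*, and its log2 fold change was 2.10 (SE 0.847, edgeR adjusted p 0.136), which was not called in 7 of the 8 fits that left out 1 tumor (adjusted p up to 0.304, log2 fold change 1.37 without *K-Setd2KO* replicate 4) and was called in 1, without *K-Setd2KO* replicate 2 (0.0158). DESeq2 called it (2.10, adjusted p 0.0297), whereas limma voom gave 1.06 (0.568) and a sex term 1.73 (0.351). The receptor for *Ccl20*, *Ccr6*, was low, at 2.14 ± 1.47 and 0.503 ± 0.312 CPM (SD, 4 tumors per group), with 2 to 13 counts in the *K-Setd2KO* tumors. Its groups did not overlap, as for 20.3% of all tested genes. The log2 fold change was −2.10 (SE 0.644, edgeR adjusted p 0.0623), called with a sex term (−2.85, edgeR adjusted p 0.0234) and by DESeq2 (−2.12). Without *K-Ctrl* replicate 2 it was −1.54 (0.161). *Slc22a17*, a described receptor for lipocalin-2, had one of 0.84 (SE 0.277, edgeR adjusted p 0.0773, called in 1 of 8 fits that left out 1 tumor, with 0.0319 without *K-Setd2KO* replicate 1 and up to 0.178 otherwise, by DESeq2 with 0.0310 and with the replicate block with 0.0378), and *Ackr1*, which binds chemokines without signaling, was too low to test at 0.171 to 1.91 CPM.

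Upstream of the chemokines, 0 of 5 tested cytokines that can induce them were called, and the list median was −0.88 on the log2 scale. The smallest p belonged to *Il1a*, the epithelial alarm cytokine, at 6.10 ± 2.04 and 1.59 ± 1.27 CPM (SD, 4 tumors per group, log2 fold change −1.85, edgeR adjusted p 0.105, called by DESeq2). Of 26 genes of IL-17, IL-1, TNF and NF-κB signaling, 2 were called higher and 5 lower, with a median of −0.16. The lower ones included the bacterial sensor *Tlr2* (−2.41, edgeR adjusted p 0.00834), the NF-κB inhibitor and target *Nfkbia* (−1.23, 0.0142) and the NF-κB subunit *Rel* (−1.01, 0.0159), and the higher ones *Lbp*, which presents bacterial lipopolysaccharide (0.92, 0.0157). Of 21 other chemokines tested, 1 was called, the macrophage chemokine *Ccl6*, at a log2 fold change of −1.93 (edgeR adjusted p 0.0121), and the median was −1.09.

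Other defense proteins of the epithelium were read beside *Lcn2*. Of 20 tested, 3 were called higher and 0 lower, and the list median was 0.42 on the log2 scale. *Steap4*, a metal reductase, rose from 13.6 ± 6.04 to 162 ± 85.9 CPM (SD, 4 tumors per group, log2 fold change 3.56, SE 0.486, edgeR adjusted p 0.00643). The mucin *Muc5ac* rose from 0.451 ± 0.398 to 4.50 ± 3.19 CPM (log2 fold change 3.32, edgeR adjusted p 0.0272) and the secreted protease inhibitor family gene *Wfdc2* from 294 ± 8.20 to 514 ± 154 CPM (0.81, 0.0396). *Steap4* kept its call in all 8 fits that left out 1 tumor, *Muc5ac* in 3 (without *K-Ctrl* replicate 4 or *K-Setd2KO* replicate 1 or 2, with an adjusted p up to 0.0776 otherwise) and *Wfdc2* in 1 (without *K-Setd2KO* replicate 4, up to 0.102 otherwise), and a sex term ended the call of *Wfdc2* (0.0644).

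Markers of the cells that make or answer these signals were read beside them. The 16 neutrophil markers summed to 134 to 499.7 CPM in *K-Ctrl* and 86.0 to 2406 CPM in *K-Setd2KO*, with *K-Setd2KO* replicates 1 and 4 highest at 1334 and 2406 CPM. Most of that sum was *Cd177* and *Hdc*, named after their values were seen, with *Cd177* at 0.862 to 128 CPM in *K-Ctrl* and at 760.4, 4.13, 202 and 1735 CPM in the *K-Setd2KO* tumors. The defining neutrophil genes *S100a8* and *S100a9* stayed at or below 5.44 CPM, *Ly6g* at or below 0.0923 CPM, and of 11 tested markers 6 were higher and 5 lower, with a median of 0.51, and 1 was called, the neutrophil collagenase *Mmp8*, lower at −2.05 (edgeR adjusted p 0.0357, called in 3 of 8 fits that left out 1 tumor, those without *K-Ctrl* replicate 4 or *K-Setd2KO* replicate 2 or 4, and up to 0.0879 otherwise, and 0.0696 with a sex term). The 6 granule genes of neutrophil precursors, cells that also make *Ltf*, summed to 0.178 to 0.420 CPM in *K-Ctrl* and 0.459 to 1.57 CPM in *K-Setd2KO*, with *Elane* and *Ctsg* at 0 in all 8 tumors.

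Macrophages are a main source of *Lyz2*. Of 17 macrophage markers 9 were called lower and 0 higher (list median −1.61 on the log2 scale), and they summed to 2554 to 7107 CPM in *K-Ctrl* and 621 to 2893 CPM in *K-Setd2KO*. Much of that sum was *Chil3*, named after its values were seen, at 1169.9 to 4596 CPM in the former and 205 to 2226 CPM in the latter, which was not called (−1.34, edgeR adjusted p 0.225). *Mrc1*, *Csf1r*, *Cd68* and *Adgre1* had log2 fold changes of −2.22, −1.59, −1.70 and −1.73 (edgeR adjusted p 0.00560, 0.00574, 0.00738 and 0.00945). Of 9 pan-leukocyte genes 7 were called lower, with a median of −1.77, among them *Laptm5*, *Itgb2*, *Ptprc* and *Arhgdib* (−1.80, −2.03, −2.08 and −1.36), and 0 of 6 tested T cell and Th17 markers were, *Cd3e* having the smallest p (−1.95, edgeR adjusted p 0.130). *Cd3e* was at −0.95 (0.384) without *K-Ctrl* replicate 2 and was called with a sex term (−2.67, 0.0301) and by DESeq2 (−1.98, 0.0356). Over the same tumors *Lyz2* had a log2 fold change of −0.30. The part of macrophages in the *Lyz1* and *Lyz2* levels was not tested.

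Markers of alveolar type 2 cells summed to 37803 to 54833 CPM in *K-Ctrl* and 46781 to 59793 CPM in *K-Setd2KO*. Of 12 epithelial genes 4 were called higher and 0 lower, *Elf3*, *Epcam*, *Krt18* and *Esrp1* (log2 fold changes 1.35, 0.90, 0.84 and 0.74), with a list median of 0.45 and sums of 3393 to 4805 CPM in *K-Ctrl* and 4232 to 5438 CPM in *K-Setd2KO*. Of 10 alveolar type 2 markers 2 were called higher, *Sftpb* (1.09, edgeR adjusted p 0.0122) and *Lpcat1* (1.05, 0.0217), and 2 lower, *Hc* (−1.43, 0.0289) and *Napsa* (−1.60, 0.0338). *Elf3* and *Sftpb* kept the call in all 8 fits that left out 1 tumor, and *Epcam* lost it without *K-Ctrl* replicate 3 (0.0595). A sex term ended the calls of *Epcam* (edgeR adjusted p 0.0544), *Esrp1* (0.0791) and *Napsa* (0.0701). *Krt18*, *Esrp1*, *Lpcat1*, *Hc* and *Napsa* lost it without *K-Ctrl* replicate 1, 2 or 3 and without at least 1 further tumor, with an adjusted p of up to 0.0928, 0.0776, 0.0704, 0.0800 and 0.0748. Of 4 club cell genes 0 were called, with *Scgb1a1* at −2.74 (edgeR adjusted p 0.0914). Over the 8 fits that left out 1 tumor, its log2 fold change ranged from −4.28 to −2.37. It was called in 1 of them, without *K-Setd2KO* replicate 4 (edgeR adjusted p 0.0247, and up to 0.198 otherwise). DESeq2 and limma voom also called it, with adjusted p of 0.0411 and 0.0448. The part of the cell mix in the *Lcn2* and *Cxcl15* levels was not tested.

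**Figure D5:**
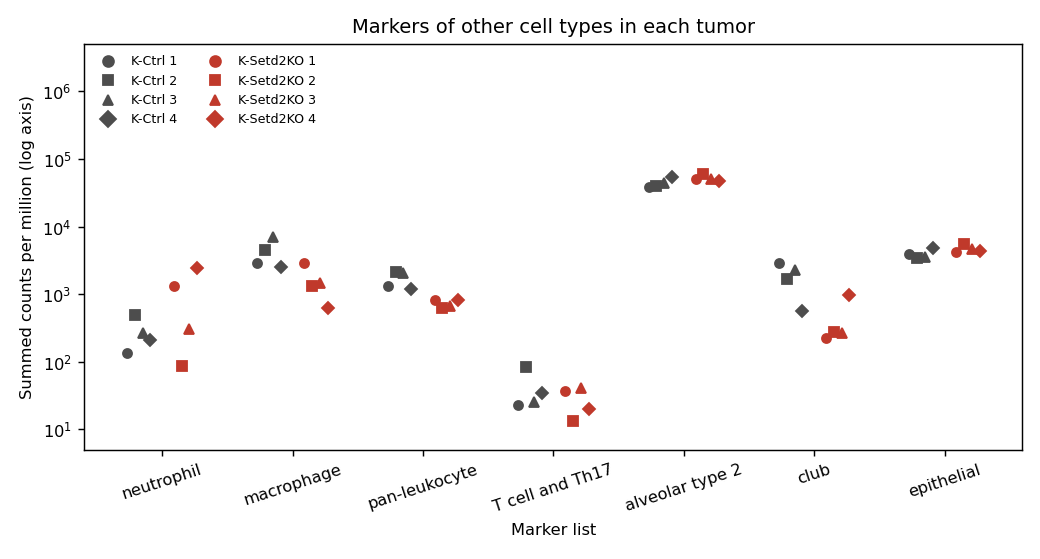
Summed CPM of 7 marker lists in each tumor on a log axis, with 1 marker shape per replicate number. Pan-leukocyte sums did not overlap between the groups (1184 to 2137 CPM in *K-Ctrl*, 616 to 829 CPM in *K-Setd2KO*). The neutrophil sum, mostly *Cd177* and *Hdc*, was highest in *K-Setd2KO* replicates 4 and 1.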

How the data were processed

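mRNA was sequenced from 8 tumors, 4 *K-Ctrl* and 4 *K-Setd2KO*, grouped by the labels. The authors deposited 1 table of raw counts per gene with GRCm38 coordinates and exon lengths, not normalized. The submitters' processing notes name STAR 2.5.2b, featureCounts 1.5.0-p1 and GRCm38.p4, and the library kit was strand-aware. The annotation release and the strand setting of the counting are not given in the sources used here. Symbols came from GENCODE M21, which matched 48349 of 48709 identifiers (99.26%).

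Counts were fitted in R 4.3.3 with edgeR 4.0.16 (filterByExpr, TMM factors, robust quasi-likelihood test of genotype over all 8 tumors), with Benjamini-Hochberg adjustment over 14929 genes and a threshold of 0.05. Single genes and ratios of 2 genes were also tested by two-sided exact permutation over the 70 assignments on log2 values with an added count of 0.5. DESeq2 (version 1.42.0 here; the study used another version), limma voom 3.58.1, other scalings and filters, a sex term, a replicate block and leaving out each tumor were alternatives. The fit was tested on simulated data. Intervals and limits from 3 counts cover counting error only. The lowest chi-square between replicates was 30.5 per degree of freedom, so no library was treated as a copy.

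The 10 genes, the 14 lists and the markers were chosen with earlier results of these data known. Named are the 10 genes, all receptors and other ELR chemokines, up to 4 called genes per list by smallest p (or else the gene of smallest p), and the 3 closest genes to each tested one. Of the latter, 1 is not reported here. Sex was read from *Xist* and Y-linked genes, and differences within each sex were added after the values were seen. Of the sequences shown, coding bases came from GENCODE M21 and promoters from RefSeq (GRCm38.p6), with no promoter used for *Cxcl5*. Protein sequences were not used here.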

Additional observations from a re-analysis of the deposited data

Results flagged for a closer look

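Dixon's test was applied to 98 groups of 4 tumors, where chance would set apart about 4.90 if values were normal and groups independent. CPM values are skewed upward and the genes share tumors, so no excess over chance is claimed. There were 12 groups that held 1 tumor far from the rest. Among the 10 genes these were *Lyz1* in *K-Ctrl* replicate 3 (345 CPM, the others 16.0 to 67.5) and in *K-Setd2KO* replicate 3 (25.1 CPM, the others 3.65 to 5.65), *Saa3* in *K-Setd2KO* replicate 1 (13.1 CPM, the others 0.185 to 1.71) and *Ltf* in *K-Ctrl* replicate 4 (8.12 CPM, the others 0.588 to 1.02). *Lyz1* was thus set apart in the tumor numbered 3 of both genotypes, although the labels do not say that replicate numbers pair tumors. The log2 ratio of *Cxcl5* to *Cxcl15* was lowest in *K-Setd2KO* replicate 2 at −13.63, with the others between −11.13 and −10.72.

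Among receptors and related ligands, *Cxcr1* reached 37.6 CPM in *K-Ctrl* replicate 3 (the others 14.1 to 15.5) and *Ppbp* 1.54 CPM in *K-Setd2KO* replicate 4 (the others 0.0765 to 0.103). In *K-Ctrl* replicate 2, *Rel* stood at 36.9 CPM (the others 24.4 to 26.2) and *Cd3e* at 23.4 CPM (the others 3.45 to 6.25). In *K-Ctrl* replicate 4, *Lpcat1* at 1492 CPM, *Napsa* at 436 CPM and *Krt18* at 341 CPM stood above the other controls, whose highest values were 1177, 311 and 199 CPM.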

How the results depend on the processing

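Of the 10 genes, 0 were called in the edgeR fit. Counting them under the alternatives, 1 was called when every tumor had to reach 10 counts and 1 with the replicate block (*Lyz1* both times, edgeR adjusted p 0.0467 and 0.0163), 2 with DESeq2 (*Lcn2* and *Lyz1*), and 0 to 1 over the fits that left out 1 tumor. Of 140 alternative log2 fold changes of the 9 tested genes, 127 kept their direction and side of the threshold, 6 passed it newly and 7 changed sign. The sign changed for *Cxcl1* with a sex term (−0.22) and for *Saa3* with a sex term (−0.68), the replicate block (−0.24) and limma voom (−0.04). Over the fits that left out 1 tumor, *Saa3* ranged from −1.37 to 1.39, *Ltf* from −1.45 to 0.66 and *Cxcl15* from −0.34 to 0.10. The cause was not tested. All 40 alternative values of the 4 ratios kept their direction. With a smallest exact p of 0.0286 before adjustment over the 4 ratios, their side of the threshold could hardly change and says nothing of stability. The 14 list counts stayed within 1.5 times without a filter. Over all genes, 1897 calls became 3194 with DESeq2, 1237 with a sex term, 1341 with the replicate block, and 763 to 2058 without 1 tumor, the lowest without *K-Ctrl* replicate 3. For same-numbered tumors, Pearson r of deviations was −0.09, −0.06, 0.22 and 0.03. Tumors of different numbers were not compared in this way, so whether the numbers pair tumors cannot be told. For 34 other tested genes, named from the lists under the naming rule, there were 536 alternative log2 fold changes. Of these, 467 kept their direction and side of the threshold, 55 lost a call, 14 gained one and 0 changed sign. Genes named after their values were seen were not among them. Reads limited *Ccl20*, *Ltf*, *Saa3*, *Cxcl2* and *Cxcl5*, which had under 10 counts in at least 1 tumor.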

Other observations

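The tumors with the most *Cxcl1* and *Lcn2* in *K-Setd2KO*, replicates 1 and 4, were also the highest of that group for other secreted or surface proteins of the lung, named here after their values were seen. The chitinase-like protein *Chil1* measured 94.9, 724, 1293 and 638 CPM in the *K-Ctrl* tumors and 6532, 1492, 1482 and 3522 CPM in the *K-Setd2KO* tumors, so that its groups did not overlap, with a log2 fold change of 2.24 that missed the threshold (edgeR adjusted p 0.0821). The surface protein *Cd177* had a log2 fold change of 3.96 (edgeR adjusted p 0.149). The airway mucin *Muc5b* was highest in *K-Setd2KO* replicates 4 and 3, at 57.0 and 11.5 CPM beside at most 3.57 CPM in *K-Ctrl* (log2 fold change 3.72, edgeR adjusted p 0.0637), as was the platelet chemokine *Pf4*, a neighbor of *Cxcl5*, at 123 and 31.9 CPM (2.91, edgeR adjusted p 0.0736).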
